A study of Mus musculus with 4 samples.

Results

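The cathepsin family on the array was followed in mouse lungs before and after inhalation of hexamethylene diisocyanate (HDI), a reactive building block of polyurethane coatings that irritates the airways. The members were the 9 genes Ctsb, Ctsc, Ctsd, Ctse, Ctsh, Ctsk, Ctsl, Ctss and Ctsz, taken by platform gene symbol from 8251 genes with a named probe set, and all 16 of their probe sets were read. The inbred strain C57BL/6J gave 4 pools of whole lungs, each on 1 Affymetrix array: unexposed lungs, and lungs 6, 18 and 90 h after HDI aerosol at 10 mg per cubic metre. The labels give no other genotype or treatment, and the number and age of the pooled mice are not stated in those labels.

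Cathepsins are proteases that mostly work in the acidic lysosome, where they degrade proteins delivered by endocytosis and autophagy. Most are cysteine proteases related to papain, while cathepsins D and E are aspartic proteases. They are made as inactive precursors, are cleaved to the active form at low pH, and are held in check outside the lysosome by cystatins. In the lung, alveolar macrophages are rich in them, type II epithelial cells use some to mature surfactant protein B, and secreted cathepsins can cut elastin and collagen.

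With 1 array per group there was no spread between replicates and no test, so each fold describes these 4 arrays. All comparisons with unexposed lungs share the unexposed array. Intensities are given after scaling the arrays to a common trimmed mean. A floor of 77.7 units was set for differences, and a difference that involves a value under it is a bound. The only measure of error came from genes read by more than 1 probe set. A single probe set's log2 difference from unexposed had a robust SD, estimated from such disagreement, of 0.28 at 6 h and at 18 h and of 0.25 at 90 h, over 294, 289 and 287 genes. Spread among mice or repeated arrays is not part of that SD. The deposited medians ran from 97.7 to 108 units over the 4 arrays. Sftpc, Sftpb and Scgb1a1, which mark lung epithelium, were above the floor on all 4.

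Ctse is included below by its brightest probe set, and the files do not settle whether that probe set's source sequence belongs to Ctse or to an endogenous provirus. At 90 h all 9 cathepsin genes by their brightest probe sets lay above the unexposed pool, where 53.8% of all genes did, with a median log2 difference of 0.53 beside 0.03 for all 6061 genes compared. Of these members, Ctsl at 0.08 and Ctse at 0.21 were within the probe set SD of 0.25. Ctsk, Ctss and Ctsh were at least 1.5-fold higher and no member was 1.5-fold lower, where 3.42% of all genes compared were that much higher and 4.88% that much lower. At 18 h the median of the members was 0.26 beside -0.01 for all genes, and 8 of 9 lay above 0, where 48.2% of all genes did. Ctsh, Ctse and Ctsk were then at least 1.5-fold higher and none lower, against a background of 6.79% higher and 6.11% lower. Quantile normalization put Ctss past 1.5-fold lower as well at 18 h, at -0.61, and Ctsk was not compared when the floor was raised to the 60th percentile. At 6 h the members lay on both sides of 0, with a median of -0.03 beside -0.04 for all genes. Ctse and Ctsh were at least 1.5-fold higher and Ctss at least 1.5-fold lower at 6 h, against a background of 7.16% higher and 6.06% lower. Without suffixed probe sets Ctse had no value, and the medians of the other 8 members were -0.11, 0.16 and 0.54 at 6, 18 and 90 h. In whole lungs, a change in the number of cells of a type and a change in RNA per cell cannot be told apart.

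The same counts were smaller at wider thresholds. At 2-fold in either direction there was 1 member at each time, Ctse at 6 h, Ctsh at 18 h and Ctsk at 90 h, where 3.67%, 2.53% and 1.65% of all genes compared passed. Without the doubted Ctse probe set no member passed 2-fold at 6 h. At 3-fold there was none at 6 or 18 h and only Ctsk at 90 h, where 0.943%, 0.53% and 0.396% of all genes passed.

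**Figure D1:**
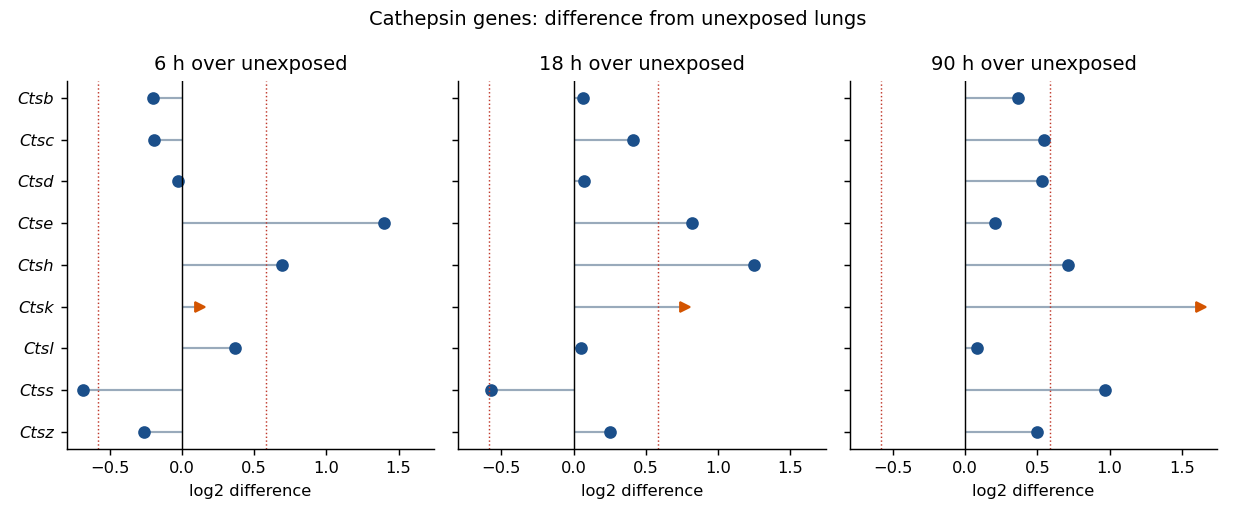
Log2 difference from unexposed lungs (horizontal axis) for the brightest probe set of each of the 9 cathepsin genes, at 6, 18 and 90 h after HDI. Circles were measured on both arrays, triangles are lower bounds because the unexposed value was under the floor, and dotted lines mark 1.5-fold. All 9 genes lie right of 0 at 90 h, while Ctss lies left of 0 at 6 and 18 h. At 90 h Ctsl (0.08) and Ctse (0.21, from a probe set of doubted identity) are within the probe set SD of 0.25.

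Ctss had the widest range of the members, 1.65 log2 units over the 4 arrays. It encodes cathepsin S, an elastin-cutting protease that stays active at neutral pH and removes the invariant chain from MHC class II molecules in antigen-presenting cells. Its single probe set read 617 units in unexposed lungs, and 384, 414 and 1207 units at 6, 18 and 90 h. It was thus lowest in the early pools and highest in the last. Against unexposed lungs it was 1.61-fold lower at 6 h, 1.49-fold lower at 18 h and 1.96-fold higher at 90 h. Without scaling of the arrays the log2 difference at 6 h was -0.57, short of 1.5-fold. Between the exposed pools, Ctss was 2.91-fold higher at 90 h than at 18 h.

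Ctsk encodes cathepsin K, the collagen- and elastin-degrading protease best known from osteoclasts and also made by macrophages and fibroblasts. Its probe set read 75.4 units in unexposed lungs, just under the floor, then 84.7, 133 and 241 units at 6, 18 and 90 h. The level was higher at each later time. Against unexposed lungs Ctsk was at least 1.09-fold higher at 6 h, at least 1.71-fold at 18 h and at least 3.10-fold at 90 h. With the floor at the 60th percentile of all values the bound at 90 h shrank to a log2 difference of 0.81, because the floor then lies well above the unexposed reading.

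Ctsk and Ctss are close neighbours on chromosome 3 of GRCm38.p6, at chr3:95499210-95509387 and chr3:95526786-95556405. The gap between them is 17398 bases and holds or overlaps 1 other annotated gene. Ctss was below the unexposed pool at 6 and 18 h, and Ctsk was not. The 250 bases before each gene's start are shown because these members had the widest ranges, both on the plus strand as given by RefSeq for GRCm38.p6. Ctss spans chr3:95526536-95526785 and Ctsk spans chr3:95498960-95499209. Capitals mark GAAANNGAA, a form of the element bound by interferon regulatory factors, a motif searched on both strands and picked after the sequence had been read.
Ctss: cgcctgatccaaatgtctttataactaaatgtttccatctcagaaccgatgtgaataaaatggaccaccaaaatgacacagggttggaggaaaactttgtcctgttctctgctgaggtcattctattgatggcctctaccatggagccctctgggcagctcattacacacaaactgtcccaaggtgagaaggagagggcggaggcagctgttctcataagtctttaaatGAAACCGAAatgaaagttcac
Ctsk: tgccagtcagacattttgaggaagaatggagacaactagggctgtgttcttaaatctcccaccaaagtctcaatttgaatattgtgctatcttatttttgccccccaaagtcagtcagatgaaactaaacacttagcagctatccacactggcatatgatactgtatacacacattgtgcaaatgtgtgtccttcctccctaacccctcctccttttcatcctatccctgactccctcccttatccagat

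The Ctss match began 21 bases before the gene's start. The motif occurred in 7.13% of the 32851 windows of the same length in the promoter table, and in 1 of the 6 members that the table holds. A match describes these letters and shows no binding.

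Among the other endopeptidases, Ctsl, which encodes cathepsin L of the lysosome and of thymic epithelium, read 523 units in unexposed lungs and 675, 541 and 553 units at 6, 18 and 90 h. The 6 h pool was the highest, at 1.29-fold over unexposed, a log2 difference of 0.37 beside the probe set SD of 0.28. Of the 6044 genes compared, 880 were higher by more. Ctsb encodes cathepsin B, an abundant lysosomal protease that also trims dipeptides from protein ends. Its brightest probe set read 1194 units in unexposed lungs and 1039, 1249 and 1536 units at 6, 18 and 90 h, with log2 differences from unexposed of -0.20, 0.06 and 0.36. Of its other 3 probe sets, 2 were measured at 90 h and gave 0.24 and 0.25, while the dimmest was under the floor in both pools. At 6 h the 4 probe sets of Ctsb gave -0.20, -0.16, 0.24 and at least 0.34, so they did not share a direction.

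The exopeptidases Ctsh, Ctsc and Ctsz trim protein ends. Ctsh encodes cathepsin H, an aminopeptidase that helps napsin A to mature surfactant protein B in type II cells. Its probe set read 685 units in unexposed lungs and 1105, 1628 and 1120 units at 6, 18 and 90 h. All 3 exposed pools were above the unexposed pool, and the 18 h pool was the highest. Ctsh was 1.61-fold, 2.38-fold and 1.63-fold higher than unexposed at 6, 18 and 90 h. It was the only member past 1.5-fold at all 3 times, and it stayed past it under all 8 other processing settings.

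None of the 4 type II cell markers compared was 1.5-fold higher, and the part of these cells in the Ctsh values was not tested. Sftpb, surfactant protein B itself, differed from unexposed by 0.04, 0.29 and -0.02 log2 units at 6, 18 and 90 h. Napsa, which encodes napsin A, had -0.13, 0.41 and 0.35. Of 8 type II markers, 5 were on the array and 4 were compared, with medians of -0.08, 0.22 and 0.06 and none past 1.5-fold. Of all genes compared, 7.16%, 6.79% and 3.42% were that much higher at 6, 18 and 90 h, and 6.06%, 6.11% and 4.88% lower. Finding none among 4 is near those shares. Their summed intensity was 18378 units in unexposed lungs and 17691, 19383 and 18493 units at 6, 18 and 90 h. Sftpd was under the floor on all 4 arrays, and no marker was listed at 0 on all 4.

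Ctsc encodes dipeptidyl peptidase I, which activates serine proteases stored in granules of neutrophils, mast cells and cytotoxic lymphocytes. Its brightest probe set read 776 units in unexposed lungs and 676, 1033 and 1130 units at 6, 18 and 90 h. The second read 155 units in unexposed lungs and 131, 195 and 288 units at those times. Both were lowest at 6 h and highest at 90 h. The log2 differences from unexposed at 90 h were 0.54 and 0.89, and the third, dim probe set gave at least 0.46. Ctsz encodes cathepsin Z, a carboxypeptidase of monocytes and macrophages. It read 216 units in unexposed lungs and 180, 258 and 305 units at 6, 18 and 90 h, the same order of pools as Ctsc, and was 1.41-fold higher than unexposed at 90 h.

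Ctsd encodes cathepsin D, the main aspartic protease of the lysosome. Its probe set read 1491 units in unexposed lungs and 1464, 1567 and 2152 units at 6, 18 and 90 h. The first 3 pools were close together and the 90 h pool was 1.44-fold above unexposed. The bases before its start are shown because they hold CACGTG, the core of the element through which the factor TFEB acts on lysosomal genes, here in capitals. The window is chr7:142387828-142388077 of GRCm38.p6, minus strand, from RefSeq.
Ctsd: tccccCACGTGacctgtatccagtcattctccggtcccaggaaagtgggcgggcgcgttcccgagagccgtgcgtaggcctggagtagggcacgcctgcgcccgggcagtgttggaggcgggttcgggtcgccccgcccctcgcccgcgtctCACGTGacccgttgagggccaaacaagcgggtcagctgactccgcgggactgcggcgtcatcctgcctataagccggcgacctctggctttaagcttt

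The matches began 245 and 98 bases before the start. CACGTG, which reads the same on both strands, was in 2 of the 6 members in the table, Ctsd and Ctsl, and in 6.02% of all windows. The Ctsl window, chr13:64370521-64370770, lies within the gene's annotated span, chr13:64361890-64370772, and not before its annotated start. The longer TCACGTG was in Ctsd alone and in 3.13% of all windows. Tfeb itself was under the floor on all 4 arrays, so its level cannot be described.

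Ctse encodes cathepsin E, an aspartic protease of endosomes found in stomach and in some immune and epithelial cells. Its 3 probe sets gave no common pattern, and the first and second may not measure Ctse. The brightest read 273 units in unexposed lungs and 720, 482 and 316 units at 6, 18 and 90 h, which is 2.63-fold, 1.76-fold and 1.16-fold higher than unexposed. The second, built from the same source sequence and open to the same doubt, read 200 units in unexposed lungs and 188, 186 and 182 units in the exposed pools, with log2 differences of -0.09, -0.10 and -0.14. The third, built from another sequence, stayed between 9.59 and 28.1 units, under the floor on all 4 arrays. The first and second carry suffixes for probe sets of relaxed design, such as those that match a family of sequences, and the third does not. Each count above that includes Ctse therefore rests on 1 such probe set, and with all its probe sets averaged the log2 differences at 6 and 18 h were 0.44 and 0.24.

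**Figure D2:**
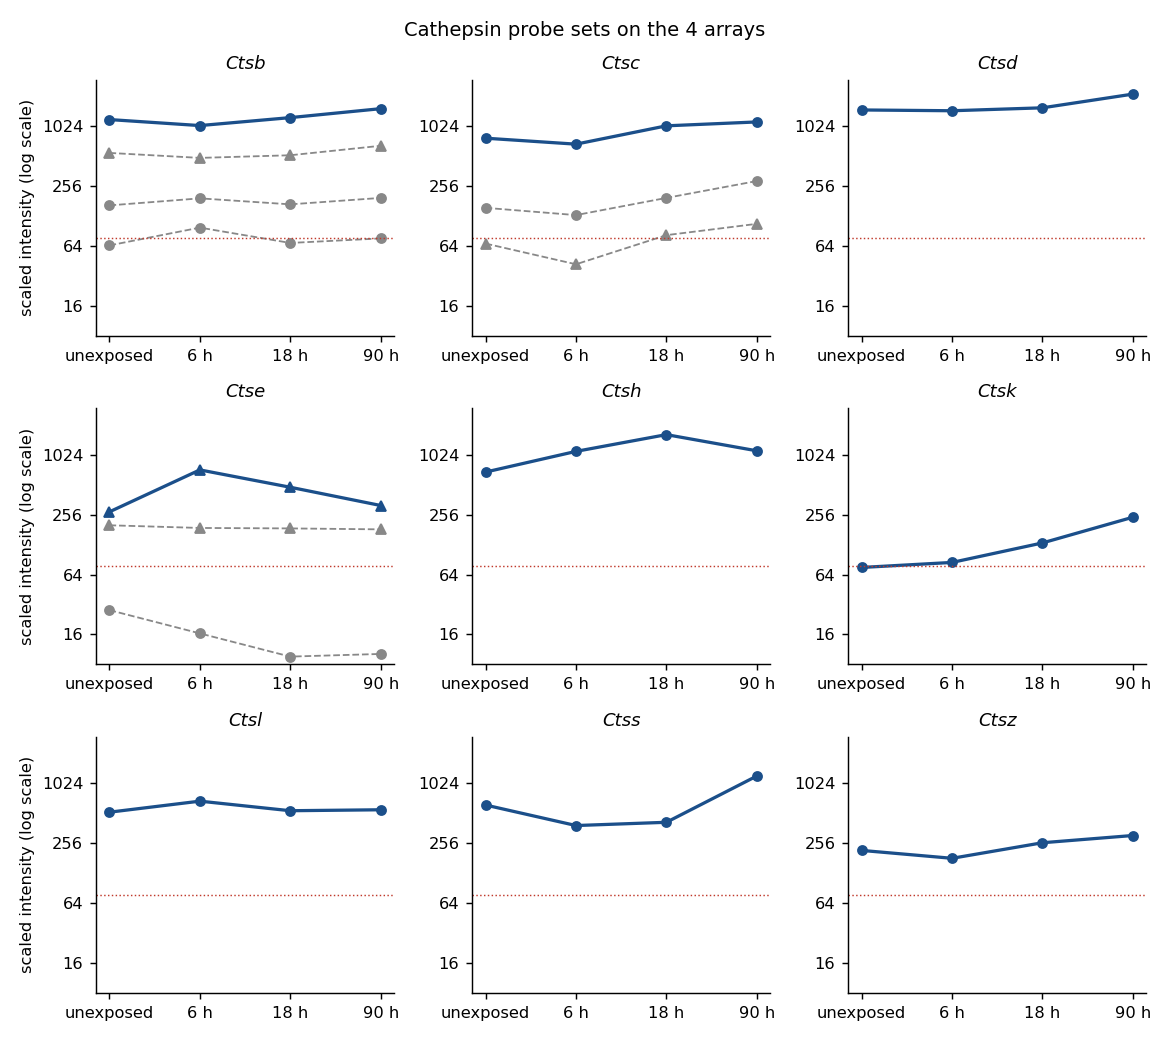
Scaled intensity on a log axis of all 16 cathepsin probe sets on the unexposed, 6, 18 and 90 h arrays, 1 panel per gene. The solid blue line is the brightest probe set, dashed grey lines are the others, triangles carry a suffix for relaxed probe design and the dotted line is the floor of 77.7 units. The probe sets of Ctsc run alike, while those of Ctse do not, and those of Ctsb do not share a direction at 6 h.

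The steps between exposed pools separated the members further. From 6 to 18 h, Ctsk and Ctsc were 1.57-fold and 1.53-fold higher in the later pool and none was 1.5-fold lower, where 5.34% of all genes were that much higher and 4.75% lower. Both fell short of 1.5-fold under 1 setting, Ctsc at 0.43 log2 units with its probe sets averaged and Ctsk at 0.50 with a pseudocount in place of the floor. At the floor of the 60th percentile the step of Ctsk was not compared. From 18 to 90 h, Ctss and Ctsk were 2.91-fold and 1.81-fold higher in the later pool and Ctse was 1.53-fold lower, against 3.68% higher and 3.98% lower. The step of Ctse was under 1.5-fold with the pseudocount or with its probe sets averaged. Ctsh was 1.45-fold lower at 90 h than at 18 h. The median of the 9 members was 0.27 for the first step and 0.24 for the second, beside -0.0043 and 0.02 for all genes.

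By the distance over the 3 log2 differences from unexposed, among 5082 genes above the floor on all 4 arrays, the gene nearest to Ctss was Mpeg1, which encodes the pore-forming perforin-2 of macrophages, at 0.39. Mpeg1 differed from unexposed by -1.04, -0.45 and 0.87 log2 units at these times. Stmn1 and Acss1 followed at 0.42 and 0.48. The gene nearest to Ctsk was Ccl6, a macrophage chemokine, at 0.23, with log2 differences of 0.02, 0.58 and 1.70, followed by Cdc20 at 0.38 and Plet1 at 0.68. For these members no gene lay within 0.2, and the values of Ctsk are bounds. The brightest probe set annotated to Ctse, whose identity is in doubt, had 3 genes within 0.2, Zfand2a, Eif1a and Ceacam1, at 0.08, 0.16 and 0.19. These likenesses rest on 4 arrays.

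Macrophage markers, like Ctss, had medians below the unexposed pool at 6 and 18 h and above it at 90 h. Of 24 markers, 21 were on the array. At 6 h 16 were compared, with a median of -0.25, none at least 1.5-fold higher and 4 lower, and at 18 h 16 with a median of -0.23, 2 higher and 2 lower. At 90 h 17 were compared, with a median of 0.53, 6 higher and 1 lower. Of all genes compared, 7.16%, 6.79% and 3.42% were at least 1.5-fold higher at 6, 18 and 90 h, and 6.06%, 6.11% and 4.88% lower. The summed intensity of the markers was 8066 units in unexposed lungs and 6449, 6475 and 9773 units at 6, 18 and 90 h. The leading members at 90 h were Chil3, a secreted chitinase-like protein (log2 difference 1.11), Mrc1, the mannose receptor (1.03), and Mpeg1 (0.87), while Cd14, a lipopolysaccharide co-receptor, led at 18 h (1.09). Not all markers rose by 90 h, when 13 lay above 0 and 4 below. The 1 lower was Siglec1, at -0.83 or less because its 90 h value was under the floor. Lyz2 (0.04) and Apoe (-0.01) were then near 0. Marco, Msr1, Fcer1g and Itgam were under the floor on all 4 arrays, and none was listed at 0 on all 4. The part of these cells in the cathepsin values was not tested.

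Genes of MHC class II presentation, where cathepsin S acts, were low in the same early pools as Ctss. All 11 list genes were on the array. Of 9 compared, 6 were at least 1.5-fold lower at 6 h (median -0.69) and 4 at 18 h (median -0.34), with none higher at either time. Of all genes compared, 6.06% and 6.11% were that much lower at 6 and 18 h, and 7.16% and 6.79% higher. The leading members were H2-Oa (log2 difference -1.11 at 6 h), Ifi30, a lysosomal thiol reductase (-0.88 at 6 h), H2-Ab1 (-0.86 at 18 h) and H2-DMa (-0.75 at 6 h). At 90 h their median was 0.14 and none passed 1.5-fold in either direction, while Ctss stood at 0.97. Of all genes compared at 90 h, 3.42% were that much higher and 4.88% lower, so finding none among 9 is near those shares. Cd74, the invariant chain that cathepsin S cuts, had log2 differences of -0.07, -0.08 and 0.22.

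Other lysosomal enzymes and membrane proteins were also mostly above the unexposed pool at 90 h. Of 31 on the array, 25 were compared at 90 h, with a median of 0.26. At least 1.5-fold higher were 4 and none lower, where 3.42% of all genes compared were that much higher and 4.88% lower. These 4 were Npc1 and Npc2, which export cholesterol from the lysosome (log2 differences 0.91 and 0.67), Man2b1, an alpha-mannosidase (0.73), and Hexa, a hexosaminidase subunit (0.68). At 6 h the median of 24 was -0.14 with 2 lower, Laptm5 (-0.84) and Cd68 (-0.63, from a suffixed probe set). At 18 h the median of 26 was -0.01 with 2 higher and 1 lower. Of all genes compared, 7.16% and 6.79% were that much higher at 6 and 18 h, and 6.06% and 6.11% lower. The difference between the cathepsins and this list was not tested.

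Subunits of the vacuolar ATPase, the proton pump that acidifies the lysosome, had all 14 genes above the floor. Their medians were 0.06, 0.15 and 0.37 at 6, 18 and 90 h, with 1, 2 and 2 at least 1.5-fold higher and none lower. Of all genes compared, 7.16%, 6.79% and 3.42% were that much higher at these times, and 6.06%, 6.11% and 4.88% lower. The count of 1 in 14 at 6 h is near that share. Atp6v0a1 had log2 differences of 0.66, 0.80 and 0.63, and Atp6v0a2 had 0.51, 0.60 and 0.74. Sorting and processing genes, which bring cathepsin precursors to the lysosome, had medians of -0.10, 0.17 and 0.23 in 9 compared of 14 on the array, with 0, 1 and 1 higher. Scarb2, a lysosomal membrane receptor, was that member (0.67 and 0.65), and Lgmn, the protease that cuts several cathepsins to their mature form, had -0.10, 0.30 and 0.26. M6pr, a mannose 6-phosphate receptor, was under the floor on all 4 arrays.

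**Figure D3:**
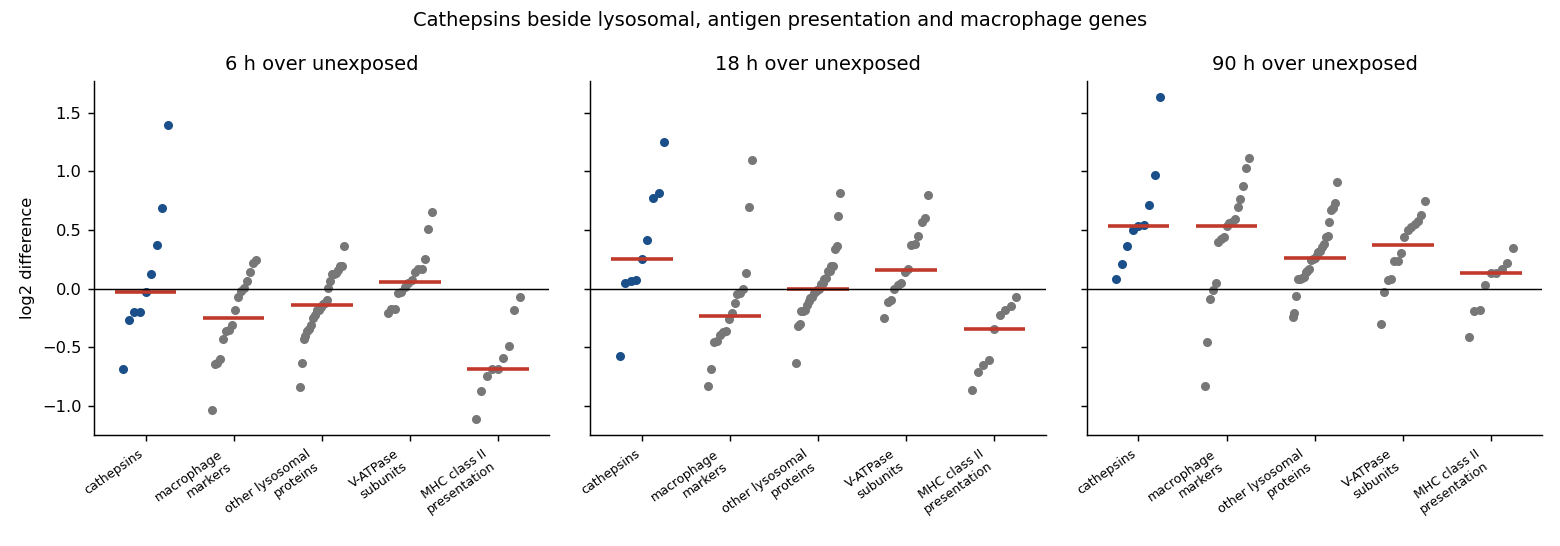
Log2 difference from unexposed lungs at 6, 18 and 90 h (vertical axis) for each gene of 5 lists: cathepsins, macrophage markers, other lysosomal proteins, vacuolar ATPase subunits and MHC class II presentation. Points are genes in order of value, bounds included, and red bars are list medians. The medians at 90 h were 0.53, 0.53, 0.26, 0.37 and 0.14.

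Among cathepsin inhibitors, 7 of 22 were on the array and 5 were compared. Cstb, which encodes the intracellular inhibitor cystatin B, read 532 units in unexposed lungs and 538, 1093 and 793 units at 6, 18 and 90 h, and was 2.05-fold higher than unexposed at 18 h. Cst3, the secreted cystatin C, read 3083 units in unexposed lungs and 2758, 2460 and 2866 units at those times. These inhibitors thus differed in direction, Cstb being highest and Cst3 lowest at 18 h. Ctla2a, an inhibitor related to the cathepsin propeptide, was 1.83-fold lower at 6 h and had a log2 difference of -0.80 at 90 h, and Cst7, cystatin F, had -0.55 at 90 h. The Ctla2a values come from a suffixed probe set of relaxed design. The list medians were -0.16, -0.27 and -0.11.

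A list of granule proteases, drawn up around activation by cathepsin C and also holding the tryptases Tpsab1 and Tpsb2, had medians below the unexposed pool at all 3 times. Whether cathepsin C activates each of them was not tested. Of 17 on the array 10 were compared, at -0.19, -0.40 and -0.07 for 6, 18 and 90 h, with none at least 1.5-fold higher and 2 lower at each time. Of all genes compared, 6.06%, 6.11% and 4.88% were that much lower at these times, and 7.16%, 6.79% and 3.42% higher. Tpsab1, at -0.63, was 1 of the 2 lower at 18 h. The 2 lower at 90 h were Mcpt8 and Gzmf, with Gzmf at -0.73 or less because its 90 h value was under the floor. Mcpt8, a basophil protease read here by a suffixed probe set of relaxed design, stood at -1.31, -0.94 and -1.23 on the log2 scale of differences. Cma1, a mast cell chymase, had -0.98 at 6 h and 0.32 at 90 h. Of the 5 cathepsin genes on the array outside the 9 members, Ctsg, Ctsw and Cts7 were under the floor on all 4 arrays. Ctsa, a lysosomal carboxypeptidase, had -0.32, -0.09 and 0.41, and Ctsf, a cysteine cathepsin, had at least 0.23 and 0.19 at 18 and 90 h.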

How the data were processed

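Total RNA of 4 pooled lung samples was read on 1 array each. The authors deposited 1 linear intensity per probe set and array, and how it was computed is not given in the labels. Of 12488 probe sets in all, 66 served as controls and were left out of genes. Genes were named through the platform annotation and its gene identifiers. Arrays were scaled to the mean of their means after trimming 2% at each end. Values under the 40th percentile, 77.7 units, were set to it before log2. A gene was represented by its brightest probe set and was compared if above the floor on either array. Differences past 1.5-fold were counted. Members, gene lists and rules were chosen with earlier results of these data known. Named list genes were up to 4 with the largest differences, and genes a sentence turned on. The 8 alternative settings were no scaling, median scaling, quantile normalization, floors at the 25th and 60th percentile, a pseudocount of 32 units in place of the floor, the mean over a gene's probe sets, and leaving out suffixed probe sets. Thresholds of 2-fold and 3-fold were also tried. The code was tested on simulated data. The planned comparison of protein sequences was not made. Python 3.11.15, pandas 2.3.3 and numpy 2.4.6 were used.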

Additional observations from a re-analysis of the deposited data

Results flagged for a closer look

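Ctss lay past 1.5-fold in opposite directions at different times. Its log2 difference from unexposed lungs was 0.97 at 90 h and -0.68 at 6 h, a gap of 1.65, or 3.14-fold between the 90 h and 6 h pools. Each value comes from 1 array and 1 probe set, and the difference between the times was not tested.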

How the results depend on the processing

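No paired analysis was possible because each group had 1 array. Without scaling, the median log2 difference of the cathepsins was 0.085, 0.40 and 0.67 at 6, 18 and 90 h, while that of all genes was 0.07, 0.12 and 0.16. In that setting 6 members were past 1.5-fold at 90 h, Ctsc, Ctsd and Ctsz in addition. The share of all genes past 1.5-fold without scaling is not given here, so that count has no background beside it. Ctss was then 0.57 below unexposed at 6 h, under 1.5-fold. The median of the step from 6 to 18 h was 0.11 with probe sets averaged and 0.39 without suffixed ones. At 2-fold 1, 1 and 1 members passed at 6, 18 and 90 h, and at 3-fold 0, 0 and 1. The pseudocount brought Ctsk from 6 to 18 h to 0.50, and it and averaging also took Ctse from 18 to 90 h under 1.5-fold. No value past 1.5-fold changed sign under the settings that gave it one, but Ctse had none without suffixed probe sets, and Ctsk had none at 18 h, over unexposed or over 6 h, when the floor was raised to the 60th percentile. Of single genes, 344 of 352 values moved by less than the probe set SD. Dim probe sets limit Ctse, Ctsk and the lesser ones of Ctsb and Ctsc.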

Other observations

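Other cell types that could contribute cathepsins were described by their markers. Of 7 fibroblast markers 6 were compared, with medians of -0.25, -0.26 and 0.19 at 6, 18 and 90 h. Their leading members were Col3a1 (log2 difference -0.76 at 6 h) and Col1a1 (0.46 at 90 h), chains of fibrillar collagens that cathepsin K can cut. Other markers differed, with Pdgfra higher at 6 h (0.46) and Fbln1 lower at all 3 times (-0.42, -0.43 and -0.34). Neutrophil markers had medians of -0.16, -0.09 and -0.0049 in 11, 10 and 10 compared, though the leading members differed in time. Ltf, the granule protein lactoferrin, was 2.93-fold lower at 6 h and had -0.84 at 18 h, while Cxcr2, a chemokine receptor, was at least 1.94-fold higher at 6 h. Lcn2, which epithelium also makes, was 5.76-fold higher at 18 h, and S100a8, a calcium-binding protein of myeloid cells, had 0.87 at 90 h. At least 1.5-fold higher were 2, 1 and 3 of the neutrophil markers at 6, 18 and 90 h, and 1, 2 and 0 were that much lower. Of all genes compared, 7.16%, 6.79% and 3.42% were that much higher at these times, and 6.06%, 6.11% and 4.88% lower.

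B cell markers had medians of -0.82, -0.36 and -0.40 in 3 compared, led by Cd79a, part of the B cell receptor, at -1.44 at 6 h. The 6 h median is the value of Ms4a1, a bound because its 6 h value was under the floor. Over the 2 markers measured on both arrays the 6 h median was -0.95. The club cell markers Scgb1a1 and Cyp2f2 had medians of -0.28, -0.49 and -0.40. Dendritic cell markers had medians of -0.21, 0.16 and 0.01, with Fscn1, an actin-bundling protein, 3.92-fold lower at 6 h. Only 2 T cell markers were compared, with medians of 0.10, -0.20 and 0.11.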
